A study of Homo sapiens with 16 samples.

Results

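The hypoxia and glycolysis genes are 40 named genes of glucose uptake, glycolysis, lactate and pyruvate handling, and the response to low oxygen. They were taken by symbol from the 22916 genes of the deposited table of TMM-scaled CPM (read counts scaled to library size, with the TMM factor evening out library composition), and all 40 symbols were found once. All 40 were also among the 17104 genes tested. RNA was sequenced from HCT116, an established human colon cancer line, in 4 groups of 4 libraries. The groups were truncation knockdown (gene-edited cells whose Rpn10, the proteasome's ubiquitin receptor encoded by PSMD4, lacks its ubiquitin interacting motif, given 4 pooled siRNAs that target OTUD5, a deubiquitinase), truncation scramble (edited cells with a scrambled siRNA), WT knockdown (unedited cells with the OTUD5 mix) and WT scramble (unedited cells with the scrambled siRNA). All groups were transfected with a lipid reagent for 48 hours at 50 nM siRNA, so the controls carry a transfection too. The labels state neither how many clones the edited line came from nor an oxygen level. In bulk RNA, fewer cells of a kind and less RNA per cell cannot be told apart.

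Glycolysis splits glucose into pyruvate in the cytosol. Cancer cells of the colon, like many other tumours, turn much of that pyruvate into lactate even when oxygen is present. Hypoxia-inducible factor (HIF) is a dimer of an oxygen-sensitive alpha subunit, HIF1A or EPAS1, with the constant partner ARNT. When oxygen is present the EGLN enzymes hydroxylate the alpha subunit, the ubiquitin ligase subunit VHL binds it, and the proteasome destroys it. When oxygen is low the alpha subunit persists, and the dimer binds short DNA motifs near genes for glucose transporters, glycolytic enzymes, lactate export, pH control and mitophagy. HIF activity is therefore set mainly at the level of protein, which RNA sequencing does not measure.

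Library totals ran from 28777244 to 29645663 counts, and the 40 genes together took 1.46 to 1.86% of them. OTUD5 itself stood at 20.7 ± 1.49 CPM in truncation knockdown, 94.9 ± 2.27 in truncation scramble, 20 ± 2.05 in WT knockdown and 88.5 ± 3.18 in WT scramble (SD, n = 4 each). The 4 truncation knockdown libraries carry a title that says scramble, whereas their description and treatment say OTUD5 siRNA, and their OTUD5 level was that of the other knockdown group. Epithelial markers were present, with group means of 2160 to 3080 CPM for KRT8, 112 to 220 CPM for EPCAM and 20.1 to 21.7 CPM for CDX2, but VIL1 was near 0 in every group. Of markers of other tissues, COL1A1 had group means of 33.6 to 50.5 CPM and ALB of 9.19 to 17.7 CPM, PTPRC reached 11.7 CPM in 1 WT scramble library, and COL1A2, PECAM1 and VWF had group means under 2 CPM. Their part in the results was not tested. WT knockdown replicate 2 stood apart for the genes described here. It held the lowest level of its group for 29 of the 40 genes, against 29.8% of all tested genes, and its median ratio to the mean of the other 3 libraries was 0.769 over the 40 genes and 1.0 over all tested genes. Its mitochondrial share of counts was 5.07%, against 3.39 to 4.11% in the other WT knockdown libraries but 3.76 to 5.41% in WT scramble. The part of that library in a result was tested only by leaving it out, and the main counts below that rest on WT knockdown are given with and without it.

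By level per kilobase of merged exons, averaged over all 16 libraries, glyceraldehyde-phosphate dehydrogenase (GAPDH) was highest at 833 CPM per kb. Enolase ENO1 followed at 735 CPM per kb, then pyruvate kinase PKM at 336, triose isomerase TPI1 at 274, PGAM1 at 173 and LDHA at 163 CPM per kb. The carbonic anhydrase CA9 was lowest at 0.133 CPM per kb. The order at the top depends on gene length: undivided, mean CPM was 3880 for ENO1, 2875 for PKM and 2482 for GAPDH. The levels of 4 genes are uncertain because other annotated genes cover much of their exons: on the same strand 42.3% of the exon bases of the aldolase ALDOA and 33.4% of those of LDHB, and on the opposite strand 38.5% of those of CA9 and 35.2% of those of ANKRD37. How reads in such stretches were assigned, and whether strand was used, is not stated in the sources used here. ALDOA averaged 10.8 ± 1.80 CPM and LDHB 10.2 ± 0.922 CPM in WT scramble cells (SD, n = 4), and both are reported only as counted. GAPDH has 65 annotated pseudogenes, whose counts came to 1.92% of its own, and those of TPI1 came to 3.38%.

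**Figure D1:**
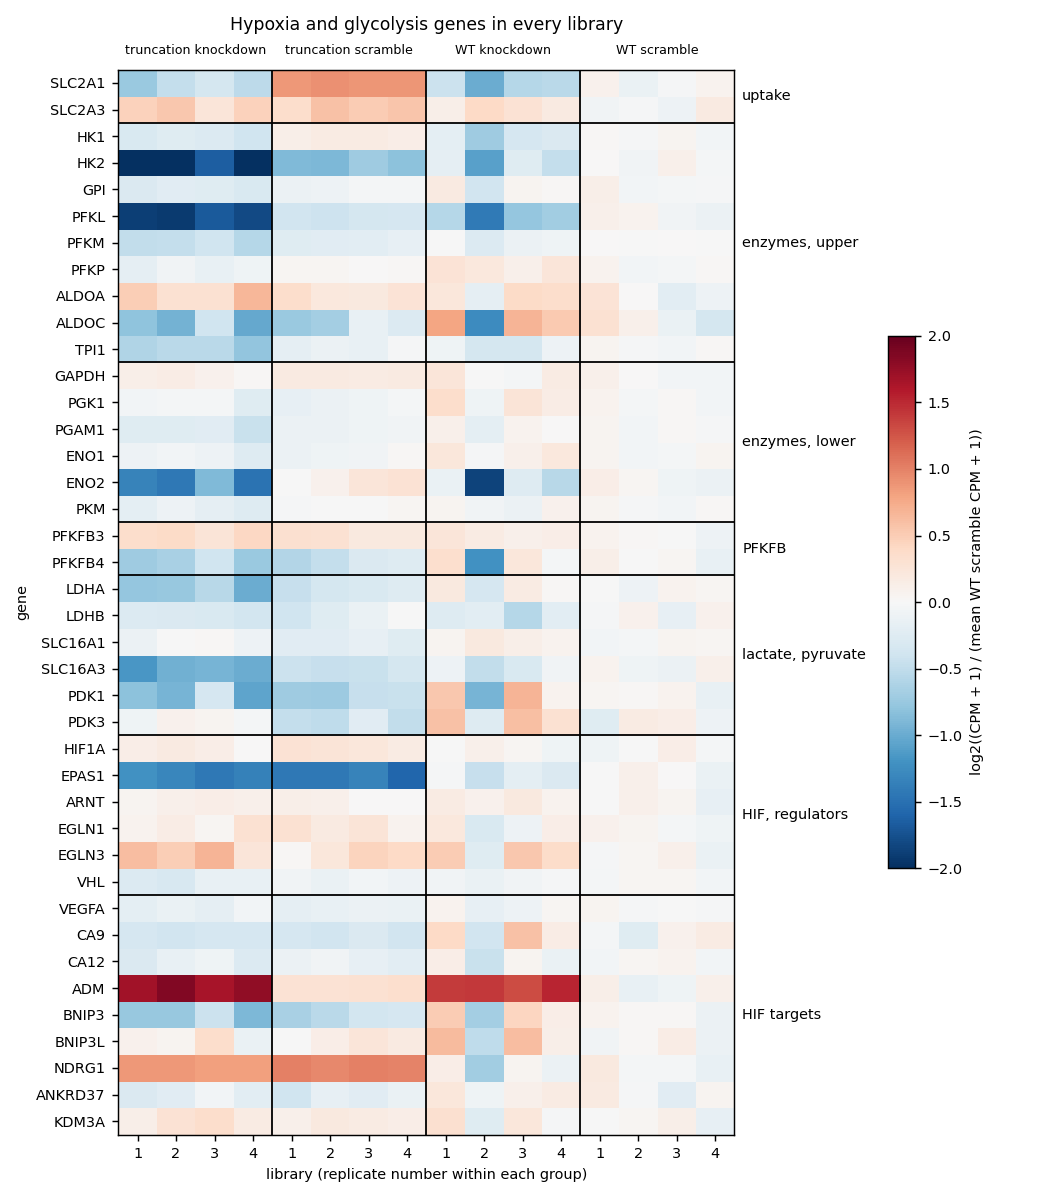
Level of each of the 40 genes (rows, grouped by role) in each of the 16 libraries (columns, 4 per group), as log2 of CPM plus 1 relative to the mean of the WT scramble libraries, from blue (lower) to red (higher), with the colour scale ending at -2 and 2. HK2, PFKL and EPAS1 are blue in the truncation libraries, ADM is red in all 8 knockdown libraries, NDRG1 is red in all 8 truncation libraries, and WT knockdown replicate 2 is bluer than its neighbours in many rows.

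Truncation under the scrambled siRNA came with higher RNA for the glucose transporters SLC2A1 and SLC2A3 and with lower RNA for hexokinase HK2, for EPAS1 and for 5 of the 6 lactate and pyruvate genes. Of the 40 genes, 7 were higher and 12 lower in truncation scramble than in WT scramble at an adjusted p under 0.05 by edgeR's quasi-likelihood test. Over all tested genes 21.6% were called higher and 22.4% lower. The median log2 fold change of the 40 genes was -0.11, against -0.02 for all tested genes. In knockdown cells the truncation came with 3 higher and 22 lower genes of the 40, against 21.9% higher and 23.6% lower of all tested genes, with medians of -0.21 and 0.00. Without WT knockdown replicate 2 those counts were 4 higher and 26 lower, against 21.8% higher and 24.6% lower of all genes then tested, with a median of -0.31, and all 22 of the lower genes were still called.

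Knockdown in WT cells came with 9 higher and 9 lower of the 40, near the 25.2% higher and 25.1% lower of all tested genes. Without replicate 2 of the WT knockdown the counts were 17 higher and 7 lower, against 24.1% higher and 23.7% lower of all genes then tested, with a median log2 fold change of 0.12 in place of 0.03. Leaving out WT knockdown replicate 3 instead gave 4 higher, and leaving out WT knockdown replicate 1 or WT scramble replicate 4 gave 5 higher each. Across all runs that left out 1 library, 3928 to 4347 of all genes were called higher in this comparison, against 4317 with all libraries. In truncation cells knockdown came with 4 higher and 12 lower, against 28.7% higher and 28.1% lower of all tested genes. The interaction, which subtracts the knockdown effect of WT cells from that of truncation cells, was called lower for SLC2A1, HK2, PFKL and PFKP and called higher for none of the 40 by edgeR (1 at an unadjusted p under 0.05, and 1 by DESeq2), against 2.05% higher and 3.65% lower of all tested genes. Without WT knockdown replicate 2 the interaction was lower for 15 of the 40, when it was lower for 6.47% of all genes then tested, and without truncation knockdown replicate 3 it was lower for 7. The comparisons share groups of libraries, so their counts are not independent of each other.

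**Figure D2:**
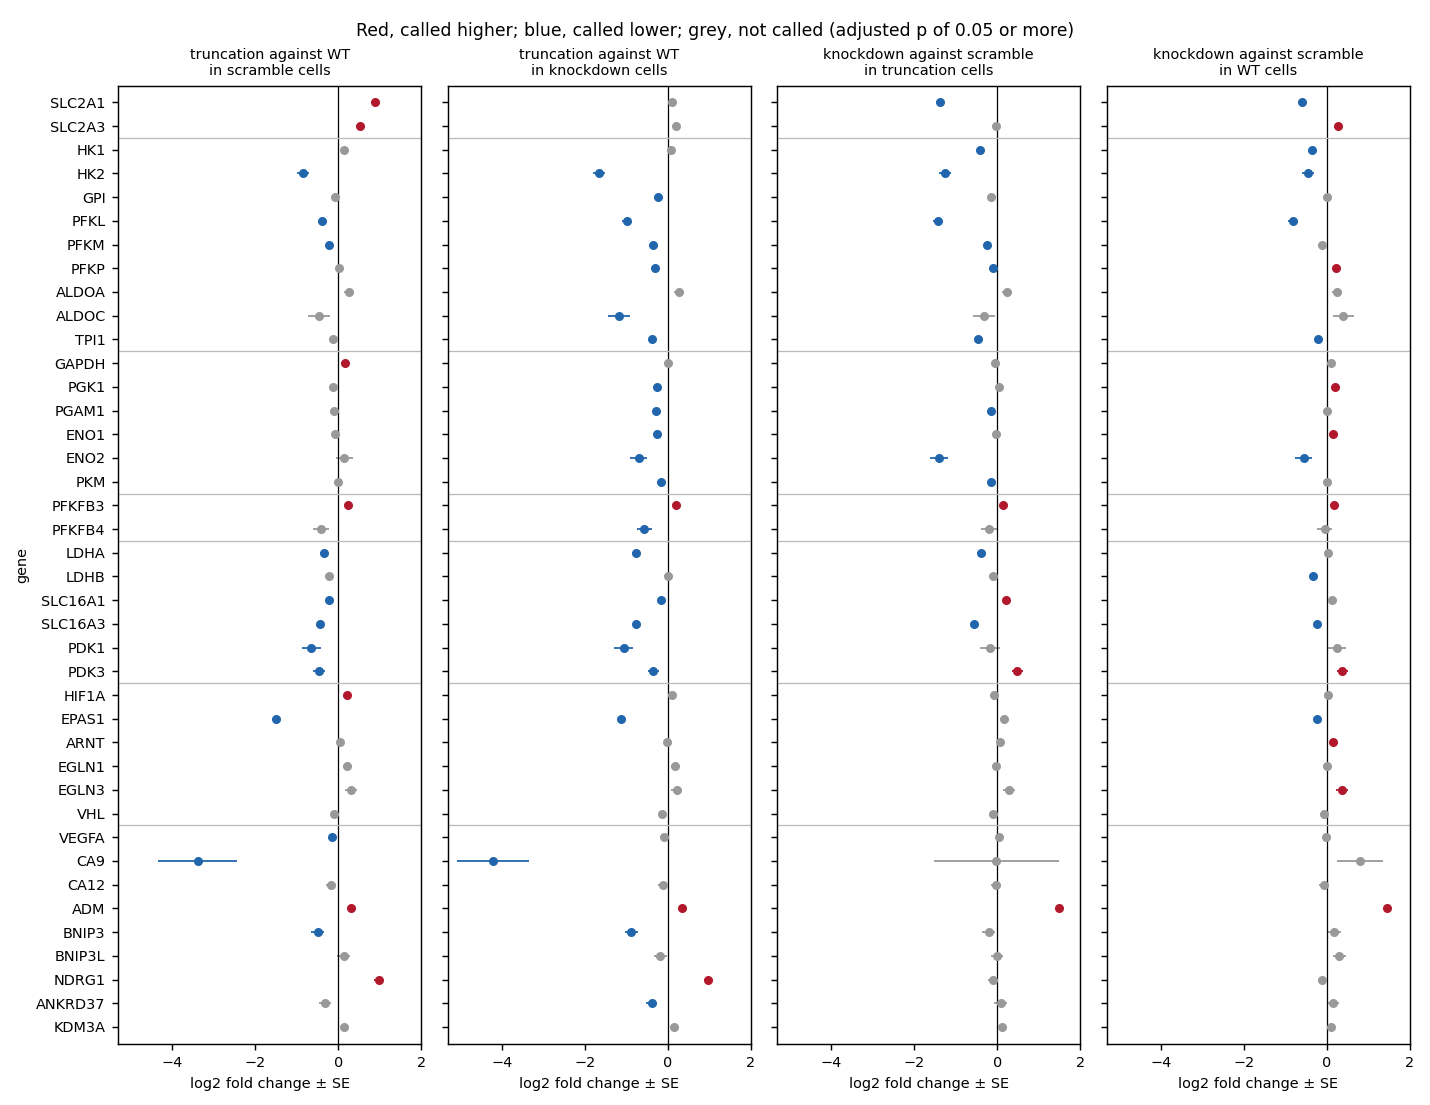
Log2 fold change with its standard error for each of the 40 genes (rows, grouped by role) in 4 comparisons, with red for called higher, blue for called lower and grey for not called. In knockdown cells 22 genes are called lower and 3 higher with the truncation.

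SLC2A1 (GLUT1) is the main, HIF-responsive glucose transporter of most cancer cells, and SLC2A3 (GLUT3) is its high-affinity relative best known from neurons. SLC2A1 lies at chr1:42925375-42959176 on the minus strand (hg38). Its level was 254, 304, 331 and 294 CPM in the truncation knockdown libraries and 775, 801, 787 and 783 CPM in truncation scramble, against 316, 213, 287 and 291 CPM in WT knockdown and 449, 386, 418 and 447 CPM in WT scramble. The truncation scramble libraries were the highest of all 16 and did not overlap any other group, and both knockdown groups lay below all WT scramble libraries. SLC2A1 was 1.83-fold higher with the truncation under scramble (log2 fold change 0.87 ± 0.09, adjusted p = 1.27e-08). In knockdown cells the genotypes were not called different (log2 fold change 0.11 ± 0.09, adjusted p = 0.346). Knockdown lowered SLC2A1 in truncation cells (log2 fold change -1.38 ± 0.09, adjusted p = 2.2e-12) and less in WT cells (log2 fold change -0.61 ± 0.09, adjusted p = 2.68e-06). That difference between genotypes was itself called, at an interaction of -0.77 ± 0.12 on the log2 scale (adjusted p = 0.000489), and ranged from -0.91 to -0.72 over 23 alternatives, each with a call.

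SLC2A3, which was far lower, had 22.4, 23.8, 19.2 and 22.4 CPM in truncation knockdown and 20.6, 24.6, 23.2 and 24.0 CPM in truncation scramble, against 17.4, 21.4, 19.8 and 18.2 CPM in WT knockdown and 15.2, 15.8, 14.8 and 18.2 CPM in WT scramble. It rose with the truncation under scramble (log2 fold change 0.52 ± 0.09, adjusted p = 2.64e-05), where the groups did not overlap. Knockdown raised it in WT cells (log2 fold change 0.28 ± 0.09, adjusted p = 0.00999), where the groups overlapped and where it was not called without WT knockdown replicates 2 and 3 together (log2 fold change 0.15, adjusted p = 0.222). Its interaction of -0.32 ± 0.12 was not called (adjusted p = 0.128). The sum over both transporters was 318 ± 30.8 CPM in truncation knockdown, 809.8 ± 12.2 in truncation scramble, 296 ± 42.8 in WT knockdown and 441 ± 30.4 in WT scramble (SD, n = 4 each), nearly all of it SLC2A1.

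The promoter of SLC2A1 is shown because the gene had the most separated transporter levels in the set. The stretch is RefSeq's 300-base window around the annotated start (GRCh38.p14, chr1:42958819-42959118 on the minus strand). Here and in the sequences below, capitals mark ACGTG and GCGTG, the core motifs that HIF is known to bind, on either strand, so CACGT and CACGC on the printed strand are their reverse complements.
SLC2A1: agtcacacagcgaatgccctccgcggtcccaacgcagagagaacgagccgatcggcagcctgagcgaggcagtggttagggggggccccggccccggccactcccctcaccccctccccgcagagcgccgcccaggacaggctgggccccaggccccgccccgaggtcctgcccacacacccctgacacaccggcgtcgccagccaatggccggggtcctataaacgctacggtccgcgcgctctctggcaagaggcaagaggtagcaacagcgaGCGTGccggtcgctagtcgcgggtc
The SLC2A1 window held 1 GCGTG and no ACGTG, and a match is a description of letters, not evidence of binding.

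**Figure D3:**
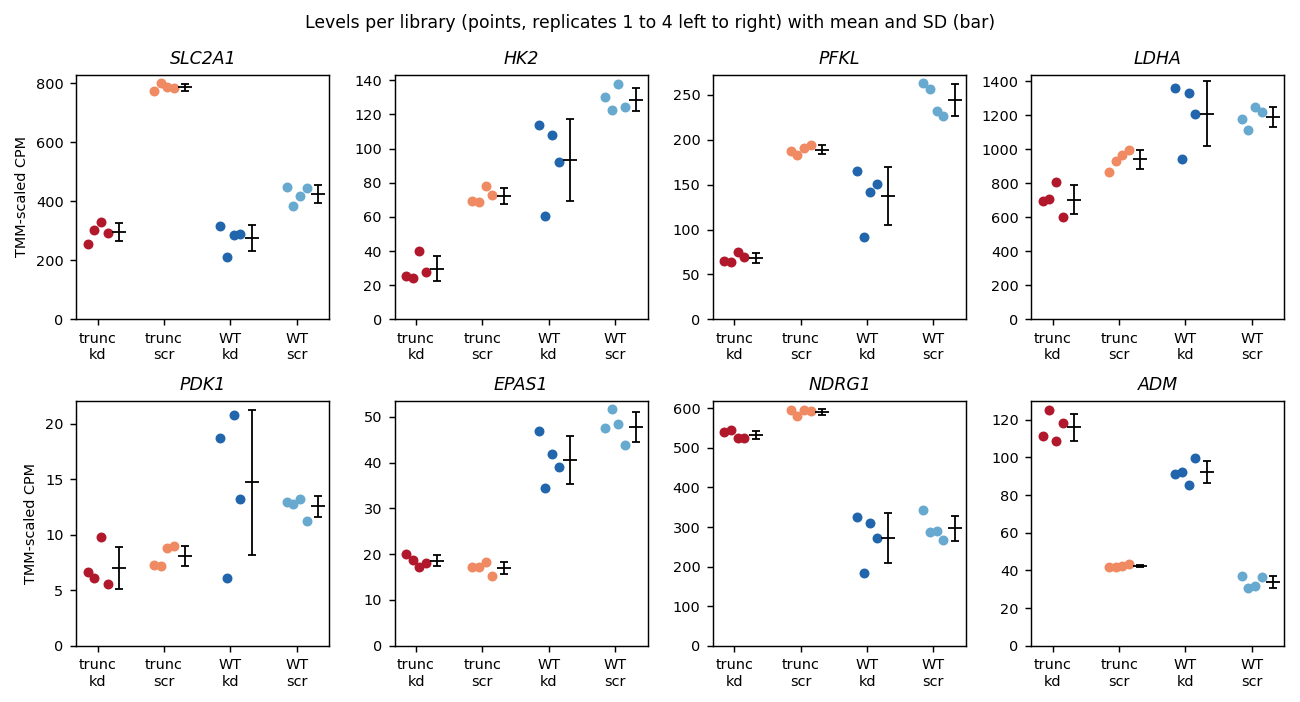
TMM-scaled CPM of 8 genes in every library, as points for replicates 1 to 4 from left to right, with the group mean and SD beside them, in the order truncation knockdown, truncation scramble, WT knockdown and WT scramble, all axes starting at 0. Truncation scramble stands highest for SLC2A1, truncation knockdown lowest for HK2, PFKL and LDHA, and WT knockdown replicate 2 lies below the rest of its group for SLC2A1, HK2, PFKL, LDHA, PDK1, EPAS1 and NDRG1 but not for ADM.

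Among the 15 glycolytic enzymes, the truncation came with 12 lower and none higher in knockdown cells, and with 3 lower and 1 higher under scramble. Of all tested genes, 23.6% were lower and 21.9% higher in knockdown cells, and 22.4% lower and 21.6% higher under scramble. Without WT knockdown replicate 2 the same 12 were lower in knockdown cells, against 24.6% of all genes then tested. For the count of none higher in knockdown cells, edgeR's test gave 1 at an unadjusted p under 0.05 and DESeq2 gave 0. Knockdown lowered 9 of the 15 in truncation cells and raised none (0 at an unadjusted p under 0.05 by edgeR, and 0 by DESeq2), and in WT cells it lowered 5 and raised 3, or 5 and 6 without that library. The falls of PFKP, PGAM1 and PKM in truncation cells were not called with upper-quartile scaling. Over all tested genes knockdown lowered 28.1% and raised 28.7% in truncation cells. In WT cells it lowered 25.1% and raised 25.2%, or 23.7% and 24.1% without that library. With knockdown in each genotype, the largest falls among the enzymes were those of HK2, PFKL and ENO2. HK2 and PFKL act before glucose is split, and ENO2 is an enolase best known from neurons. With the truncation in knockdown cells, HK2 and ALDOC fell most (log2 fold changes of -1.65 and -1.18).

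Hexokinase traps glucose as its phosphate, and HK2 is the inducible form that many tumours express beside the housekeeping HK1. HK2 (chr2:74833981-74893359) had 25.6, 24.5, 40.2 and 28.0 CPM in truncation knockdown and 69.0, 69.0, 78.4 and 72.7 CPM in truncation scramble, against 114, 60.3, 108 and 91.9 CPM in WT knockdown and 130.1, 122, 138 and 125 CPM in WT scramble. Truncation knockdown lay below every other library, and truncation scramble below every WT library except WT knockdown replicate 2. HK2 fell with the truncation under scramble (log2 fold change -0.85 ± 0.14, adjusted p = 2.18e-05) and in knockdown cells (log2 fold change -1.65 ± 0.15, adjusted p = 1.29e-09). Knockdown lowered it in truncation cells (log2 fold change -1.25 ± 0.15, adjusted p = 6.53e-08) and in WT cells (log2 fold change -0.45 ± 0.14, adjusted p = 0.0082), with a called interaction of -0.80 ± 0.20 (adjusted p = 0.0167). HK1 also fell with knockdown, by 0.42 ± 0.07 on the log2 scale in truncation cells and by 0.36 ± 0.07 in WT cells (adjusted p = 2.34e-05 and 0.000178), but with all libraries was not called between genotypes. Per kilobase, HK2 made up 19.6 ± 3.7% of the 2 hexokinases in truncation knockdown, 30.5 ± 1.2% in truncation scramble, 44.3 ± 3.6% in WT knockdown and 46.3 ± 0.69% in WT scramble (SD, n = 4 each). With the longest transcript as gene length those shares were 14.0, 22.6, 34.7 and 36.5% in the same group order.

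Phosphofructokinase, the committed step of glycolysis, is a tetramer drawn from the liver (PFKL), muscle (PFKM) and platelet (PFKP) subunits. PFKL (chr21:44300051-44327376) had 65.5, 63.8, 75.6 and 69.0 CPM in truncation knockdown and 188, 183, 191 and 194 CPM in truncation scramble, against 165, 91.3, 142 and 151 CPM in WT knockdown and 263, 256, 232 and 226 CPM in WT scramble. Each knockdown group lay wholly below its scramble group, and truncation below WT for the same siRNA. PFKL fell with knockdown in truncation cells (log2 fold change -1.43 ± 0.11, adjusted p = 5.52e-11) and in WT cells (log2 fold change -0.82 ± 0.11, adjusted p = 6.56e-07), and the interaction of -0.61 ± 0.15 was called (adjusted p = 0.0171). It also fell with the truncation, by 0.99 ± 0.11 in knockdown cells and by 0.38 ± 0.11 under scramble on the log2 scale (adjusted p = 5.82e-08 and 0.00502). PFKM fell with the truncation by 0.36 ± 0.05 in knockdown cells and by 0.23 ± 0.05 under scramble, and with knockdown in truncation cells by 0.24 ± 0.05 (adjusted p = 4.83e-06, 0.00113 and 0.000385).

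PFKP, the most abundant of the 3, moved the other way in WT cells. It had 474, 513, 483 and 505 CPM in truncation knockdown and 553, 550.1, 539.6 and 548 CPM in truncation scramble, against 646, 623, 574 and 639 CPM in WT knockdown and 566, 515, 521 and 548 CPM in WT scramble. Truncation knockdown lay below all other libraries and WT knockdown above all others. Knockdown raised it in WT cells (log2 fold change 0.22 ± 0.05, adjusted p = 0.000544) and lowered it in truncation cells (log2 fold change -0.12 ± 0.05, adjusted p = 0.0445), with an interaction of -0.33 ± 0.07 (adjusted p = 0.00444). The fall in truncation cells was not called without truncation knockdown replicate 1 (adjusted p = 0.0648) or truncation knockdown replicate 3 (adjusted p = 0.0553). Nor was it called with upper-quartile scaling (log2 fold change -0.06, adjusted p = 0.31), whereas the interaction was called in all 23 alternatives. By level per kilobase PFKL made up 5.88 ± 0.48% of the 3 subunits in truncation knockdown, 13.3 ± 0.32% in truncation scramble, 8.99 ± 1.8% in WT knockdown and 16.3 ± 1% in WT scramble, and PFKP 78.2 ± 1.2%, 71.0 ± 0.57%, 75.3 ± 2.5% and 66.3 ± 1.2% in the same order (SD, n = 4 each).

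The windows of HK2 and PFKL are shown as 2 of the 3 enzyme genes whose knockdown effect differed between genotypes. For HK2, which has 2 annotated windows, the one with more matches is printed (chr2:74834920-74835219 on the plus strand), and the PFKL window is chr21:44299803-44300102 on the plus strand (both GRCh38.p14, RefSeq, 300 bases).
HK2: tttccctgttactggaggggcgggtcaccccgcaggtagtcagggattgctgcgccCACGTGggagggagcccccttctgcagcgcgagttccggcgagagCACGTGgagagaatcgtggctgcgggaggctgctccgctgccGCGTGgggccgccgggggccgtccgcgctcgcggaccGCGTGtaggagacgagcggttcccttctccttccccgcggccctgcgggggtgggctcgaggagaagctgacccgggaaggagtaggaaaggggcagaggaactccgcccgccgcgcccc
PFKL: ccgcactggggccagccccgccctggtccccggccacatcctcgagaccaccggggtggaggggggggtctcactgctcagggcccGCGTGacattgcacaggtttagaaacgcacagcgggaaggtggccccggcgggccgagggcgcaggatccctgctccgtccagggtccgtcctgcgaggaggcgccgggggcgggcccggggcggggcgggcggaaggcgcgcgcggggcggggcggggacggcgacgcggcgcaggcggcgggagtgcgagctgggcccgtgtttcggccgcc
Counted over both strands, where each CACGTG gives 2 matches to ACGTG, the HK2 window held 4 matches to ACGTG at 2 separate sites and 2 to GCGTG, and the PFKL window held 1 GCGTG.

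**Figure D4:**
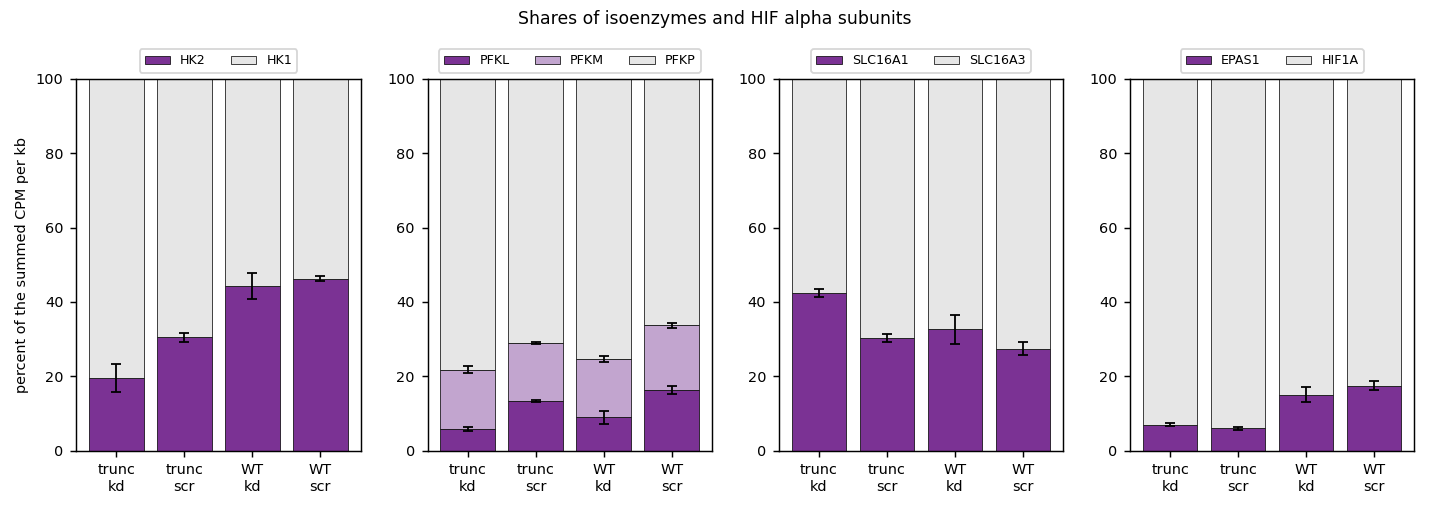
Share of each isoenzyme or subunit in the summed CPM per kilobase of merged exons of its family (bars stacked to 100%, mean of 4 libraries, error bars SD), for hexokinases, phosphofructokinases, monocarboxylate transporters and the 2 HIF alpha subunits, in the order truncation knockdown, truncation scramble, WT knockdown and WT scramble. HK2 and EPAS1 take smaller shares in both truncation groups, PFKL in both knockdown groups, and SLC16A1 takes its largest share in truncation knockdown.

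Of the remaining upper enzymes, glucose-phosphate isomerase (GPI) fell with the truncation in knockdown cells (log2 fold change -0.24 ± 0.08, adjusted p = 0.0131), a call lost without WT knockdown replicate 1 (adjusted p = 0.0605). TPI1, which interconverts the triose phosphates, fell with the truncation in knockdown cells (log2 fold change -0.39 ± 0.06, adjusted p = 2.4e-05) and with knockdown in truncation cells (log2 fold change -0.46 ± 0.06, adjusted p = 1.13e-06) and WT cells (log2 fold change -0.21 ± 0.06, adjusted p = 0.00909). The last of these was not called without WT knockdown replicates 2 and 3 together (log2 fold change -0.09, adjusted p = 0.266). The aldolase ALDOC had 17.8, 15.97, 23.8 and 15.1 CPM in truncation knockdown and 18.6, 19.5, 28.5 and 26.2 CPM in truncation scramble, against 55.5, 12.8, 51.3 and 46.0 CPM in WT knockdown and 39.3, 34.2, 29.001 and 24.7 CPM in WT scramble. WT knockdown replicate 2 was the lowest of all 16 libraries and the other 3 WT knockdown libraries were the highest. ALDOC fell with the truncation in knockdown cells (log2 fold change -1.18 ± 0.26, adjusted p = 0.000665; without WT knockdown replicate 2, log2 fold change -1.48, adjusted p = 1.09e-08). With all libraries ALDOA was not called in any of the 5 comparisons, with log2 fold changes of 0.00 to 0.27.

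The lower part of glycolysis makes ATP and pyruvate, and its enzymes are among the most abundant RNAs of these cells. GAPDH was 1.12-fold higher with the truncation under scramble (log2 fold change 0.16 ± 0.05, adjusted p = 0.0176), the single called rise among the 15 enzymes in that comparison, and the call was lost without WT scramble replicate 3 (adjusted p = 0.0518) or WT scramble replicate 4 (adjusted p = 0.0572). That rise was also not called with upper-quartile scaling (adjusted p = 0.083). With the truncation in knockdown cells 5 of the 6 lower enzymes fell: PGK1, which makes the first ATP, by 0.26 ± 0.07, the mutase PGAM1 by 0.28 ± 0.06, ENO1 by 0.25 ± 0.06, ENO2 by 0.70 ± 0.21 and PKM by 0.16 ± 0.05 on the log2 scale (adjusted p = 0.00343, 0.000453, 0.00107, 0.00743 and 0.00857). These falls were small except for ENO2. Knockdown in truncation cells lowered PGAM1 by 0.16 ± 0.06, PKM by 0.15 ± 0.05 and ENO2 by 1.40 ± 0.21 (adjusted p = 0.0302, 0.0124 and 2.63e-06). The PGAM1 call was lost without truncation knockdown replicate 4 (adjusted p = 0.0647). With upper-quartile scaling neither PGAM1 (adjusted p = 0.14) nor PKM (adjusted p = 0.106) was called in this comparison.

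ENO2 had 51.7, 48.2, 70.9 and 46.7 CPM in truncation knockdown and 131, 139.7, 157 and 161 CPM in truncation scramble, against 119.7, 35.9, 109 and 89.2 CPM in WT knockdown and 145, 136, 124 and 122 CPM in WT scramble. Both knockdown groups lay below their scramble groups without overlap, and WT knockdown replicate 2 was below every other library. In WT cells the fall with knockdown (log2 fold change -0.56 ± 0.20, adjusted p = 0.024) was -0.30 without that library (adjusted p = 0.03) and was not called without WT scramble replicate 1 (adjusted p = 0.0645). The interaction of -0.85 ± 0.29 was not called with all libraries (adjusted p = 0.0818) and was -1.11 without WT knockdown replicate 2 (adjusted p = 4.3e-05). PGK1 and ENO1 rose with knockdown in WT cells by 0.19 ± 0.07 and 0.14 ± 0.06 (adjusted p = 0.0262 and 0.0483). The PGK1 call was lost without WT scramble replicate 2 (adjusted p = 0.0697) or WT scramble replicate 4 (adjusted p = 0.0644) or WT knockdown replicate 1 (adjusted p = 0.137) or WT knockdown replicate 3 (adjusted p = 0.0995), and the ENO1 call was lost when any 1 of 12 libraries was left out, with an adjusted p of at most 0.172.

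PFKFB3 and PFKFB4 make the sugar bisphosphate that activates phosphofructokinase. PFKFB3 had 112, 115, 106 and 118 CPM in truncation knockdown and 109.8, 109, 102 and 101 CPM in truncation scramble, against 105, 99.0, 94.7 and 97.1 CPM in WT knockdown and 92.9, 89.4, 88.1 and 82.5 CPM in WT scramble. WT scramble lay below all other libraries. PFKFB3 was higher with the truncation in knockdown cells (log2 fold change 0.20 ± 0.05, adjusted p = 0.00301) and under scramble (log2 fold change 0.24 ± 0.05, adjusted p = 0.000734). With knockdown it was higher in truncation cells (log2 fold change 0.14 ± 0.05, adjusted p = 0.0324) and in WT cells (log2 fold change 0.17 ± 0.05, adjusted p = 0.00893). The call in truncation cells was lost when any 1 of 9 libraries was left out, with an adjusted p of at most 0.188. PFKFB4 had 26.5, 27.5, 33.0 and 25.9 CPM in truncation knockdown and 29.1, 31.4, 35.7 and 36.5 CPM in truncation scramble, against 55.6, 18.3, 51.3 and 42.6 CPM in WT knockdown and 47.6, 43.4, 45.1 and 39.4 CPM in WT scramble. The 2 truncation groups lay below all WT libraries other than WT knockdown replicate 2, the lowest of all 16. PFKFB4 was called lower with the truncation in knockdown cells (log2 fold change -0.57 ± 0.19, adjusted p = 0.0158; without WT knockdown replicate 2, log2 fold change -0.82, adjusted p = 1.11e-07), a call lost without WT knockdown replicate 1 (adjusted p = 0.0829) or WT knockdown replicate 3 (adjusted p = 0.067). Under scramble the groups did not overlap, yet it was not called (log2 fold change -0.42 ± 0.19, adjusted p = 0.071).

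Lactate and pyruvate genes were lower with the truncation whichever siRNA was given, 5 of the 6 in each comparison by edgeR, against 23.6% of all tested genes in knockdown cells and 22.4% under scramble, and 4 of the 6 in each by DESeq2. With the truncation, the 14 tested genes of the wider pyruvate and lactate list had 3 higher and 5 lower in knockdown cells. Under scramble they had 4 higher and 5 lower. Of all tested genes 21.9% were higher in knockdown cells and 21.6% under scramble. LDHA reduces pyruvate to lactate, LDHB favours the reverse reaction, SLC16A3 (MCT4) exports lactate, SLC16A1 (MCT1) carries it either way, and the kinases PDK1 and PDK3 hold pyruvate back from the mitochondrial dehydrogenase. LDHA (chr11:18394388-18408425) had 693, 708, 809 and 599.9 CPM in truncation knockdown and 865, 933, 966 and 997 CPM in truncation scramble, against 1361, 942, 1329 and 1208 CPM in WT knockdown and 1181, 1114, 1251 and 1219 CPM in WT scramble. Every truncation library lay below every WT scramble library, and all truncation knockdown libraries lay below all others. LDHA fell with the truncation in knockdown cells (log2 fold change -0.78 ± 0.09, adjusted p = 1.36e-07) and under scramble (log2 fold change -0.36 ± 0.09, adjusted p = 0.00238). Knockdown lowered it in truncation cells (log2 fold change -0.39 ± 0.09, adjusted p = 0.000691) and was not called in WT cells (log2 fold change 0.03 ± 0.09, adjusted p = 0.782), but the interaction of -0.42 ± 0.13 was not called (adjusted p = 0.05 after rounding, not under the threshold). Without WT knockdown replicate 2 it was -0.53 (adjusted p = 0.00124).

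SLC16A3 fell with the truncation by 0.77 ± 0.07 in knockdown cells and by 0.43 ± 0.07 under scramble, and with knockdown by 0.56 ± 0.07 in truncation cells and by 0.23 ± 0.07 in WT cells (adjusted p = 6.99e-09, 3.82e-05, 5.72e-07 and 0.0134). The last of these calls was lost without WT scramble replicate 4 (adjusted p = 0.0515) or WT knockdown replicate 2 (adjusted p = 0.0652). SLC16A1 had 149, 161, 165 and 149.9 CPM in truncation knockdown and 137, 137, 145 and 136 CPM in truncation scramble, against 169, 185, 176 and 169 CPM in WT knockdown and 155, 157, 168 and 166 CPM in WT scramble. Truncation scramble was below the other 3 groups. SLC16A1 fell with the truncation under scramble (log2 fold change -0.23 ± 0.05, adjusted p = 0.000728) and in knockdown cells (log2 fold change -0.15 ± 0.05, adjusted p = 0.0178), the second of these not called without truncation knockdown replicate 1 (adjusted p = 0.0538), and knockdown raised it in truncation cells (log2 fold change 0.20 ± 0.05, adjusted p = 0.0017). Per kilobase it made up 42.4 ± 1.1% of the 2 transporters in truncation knockdown, 30.2 ± 1.1% in truncation scramble, 32.6 ± 4% in WT knockdown and 27.4 ± 1.8% in WT scramble (SD, n = 4 each).

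PDK1 had 6.64, 6.14, 9.76 and 5.52 CPM in truncation knockdown and 7.32, 7.23, 8.79 and 8.96 CPM in truncation scramble, against 18.7, 6.12, 20.8 and 13.3 CPM in WT knockdown and 13.0, 12.8, 13.2 and 11.2 CPM in WT scramble. All truncation libraries lay below WT scramble, and WT knockdown spanned both ranges, with replicate 2 the lowest. PDK1 fell with the truncation in knockdown cells (log2 fold change -1.07 ± 0.23, adjusted p = 0.000431; without WT knockdown replicate 2, log2 fold change -1.32, adjusted p = 7.22e-08) and under scramble (log2 fold change -0.65 ± 0.23, adjusted p = 0.0232), the second lost without truncation scramble replicate 1 (adjusted p = 0.0639) or truncation scramble replicate 2 (adjusted p = 0.0665). It was called higher with knockdown in WT cells without replicate 2 (log2 fold change 0.50, adjusted p = 0.00482) but not with it (log2 fold change 0.25 ± 0.22, adjusted p = 0.363). PDK3 had 19.3, 21.7, 21.3 and 19.95 CPM in truncation knockdown and 14.5, 14.1, 17.5 and 14.3 CPM in truncation scramble, against 31.4, 17.02, 31.7 and 25.6 CPM in WT knockdown and 17.2, 23.2, 22.7 and 19.0 CPM in WT scramble. Truncation scramble lay lowest apart from its replicate 3, which exceeded 1 library of each WT group. PDK3 fell with the truncation under scramble (log2 fold change -0.46 ± 0.14, adjusted p = 0.00889) and in knockdown cells (log2 fold change -0.35 ± 0.13, adjusted p = 0.032), and rose with knockdown in truncation cells (log2 fold change 0.48 ± 0.14, adjusted p = 0.00428) and in WT cells (log2 fold change 0.38 ± 0.13, adjusted p = 0.021). Its call between genotypes in knockdown cells was lost without WT knockdown replicate 1 (adjusted p = 0.116) or WT knockdown replicate 3 (adjusted p = 0.139) or truncation knockdown replicate 1 (adjusted p = 0.0732) or truncation knockdown replicate 4 (adjusted p = 0.0607). In WT cells its rise was lost without WT scramble replicate 1 (adjusted p = 0.0846) or WT scramble replicate 4 (adjusted p = 0.054) or WT knockdown replicate 1 (adjusted p = 0.0946) or WT knockdown replicate 3 (adjusted p = 0.115). LDHB, as counted, was called in 1 comparison, lower with knockdown in WT cells by 0.33 ± 0.10 on the log2 scale (adjusted p = 0.00666).

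The windows of LDHA and PDK1 are shown because both genes were lower in both truncation groups and hold clustered matches. Each has 2 annotated windows, of which the one with more matches is printed, chr11:18394313-18394612 on the plus strand for LDHA and chr2:172555840-172556139 on the plus strand for PDK1 (GRCh38.p14, RefSeq, 300 bases).
LDHA: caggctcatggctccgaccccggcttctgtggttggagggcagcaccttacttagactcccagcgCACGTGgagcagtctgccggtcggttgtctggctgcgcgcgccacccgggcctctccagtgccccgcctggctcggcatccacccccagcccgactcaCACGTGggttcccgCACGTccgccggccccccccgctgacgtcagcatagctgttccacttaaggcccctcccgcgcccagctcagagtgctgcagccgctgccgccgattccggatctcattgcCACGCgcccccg
PDK1: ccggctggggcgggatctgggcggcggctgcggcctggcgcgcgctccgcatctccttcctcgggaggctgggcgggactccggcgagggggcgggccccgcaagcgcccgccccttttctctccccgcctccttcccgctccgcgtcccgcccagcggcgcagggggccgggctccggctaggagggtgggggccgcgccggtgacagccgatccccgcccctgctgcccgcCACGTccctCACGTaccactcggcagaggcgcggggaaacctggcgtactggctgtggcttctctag
The LDHA window held 5 matches to ACGTG over both strands, at 3 separate sites of which 2 are CACGTG, and 1 to GCGTG. The PDK1 window held 2 ACGTG at 2 sites.

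Of the 6 HIF subunits and regulators, EPAS1 had the largest changes in RNA. The others had log2 fold changes of -0.14 to 0.37 over the 5 comparisons. HIF1A had 175, 181, 176 and 161 CPM in truncation knockdown and 195, 192, 188 and 179 CPM in truncation scramble, against 159, 173, 166 and 151 CPM in WT knockdown and 150.4, 159.9, 176 and 155 CPM in WT scramble. Truncation scramble lay above all WT scramble libraries, and it was called higher (log2 fold change 0.22 ± 0.06, adjusted p = 0.00313). In knockdown cells it was not called between genotypes (log2 fold change 0.11 ± 0.06, adjusted p = 0.139), nor with knockdown in truncation cells (log2 fold change -0.09 ± 0.06, adjusted p = 0.206) or WT cells (log2 fold change 0.03 ± 0.06, adjusted p = 0.723). WT knockdown replicate 2 was not low for HIF1A. EPAS1 (chr2:46293667-46386703), the alternative alpha subunit, had 20.1, 18.7, 17.2 and 18.1 CPM in truncation knockdown and 17.2, 17.2, 18.3 and 15.2 CPM in truncation scramble, against 46.9, 34.6, 41.8 and 39.2 CPM in WT knockdown and 47.6, 51.7, 48.4 and 43.8 CPM in WT scramble. All truncation libraries lay below all WT libraries. EPAS1 fell with the truncation under scramble (log2 fold change -1.51 ± 0.08, adjusted p = 2.22e-13) and in knockdown cells (log2 fold change -1.12 ± 0.08, adjusted p = 5.48e-11). Knockdown lowered it in WT cells (log2 fold change -0.23 ± 0.08, adjusted p = 0.0198), a call lost without WT scramble replicate 2 (adjusted p = 0.0744) or WT knockdown replicate 2 (adjusted p = 0.0862) or WT knockdown replicate 4 (adjusted p = 0.0539). Per kilobase EPAS1 made up 7.02 ± 0.48% of the 2 alpha subunits in truncation knockdown, 5.97 ± 0.32% in truncation scramble, 15.04 ± 2% in WT knockdown and 17.4 ± 1.2% in WT scramble (SD, n = 4 each).

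EGLN3, a HIF-induced hydroxylase, had 14.0, 12.8, 14.7 and 10.6 CPM in truncation knockdown and 8.96, 10.6, 12.4 and 12.0 CPM in truncation scramble, against 13.0, 7.30, 13.3 and 11.6 CPM in WT knockdown and 8.68, 9.14, 9.57 and 7.97 CPM in WT scramble. The groups overlapped. Its rise with knockdown in WT cells was called (log2 fold change 0.37 ± 0.14, adjusted p = 0.0348) but was lost without WT scramble replicate 1 (adjusted p = 0.0683) or WT scramble replicate 2 (adjusted p = 0.0528) or WT scramble replicate 4 (adjusted p = 0.09) or WT knockdown replicate 1 (adjusted p = 0.116) or WT knockdown replicate 3 (adjusted p = 0.148) or WT knockdown replicate 4 (adjusted p = 0.0606). ARNT rose with knockdown in WT cells (log2 fold change 0.14 ± 0.06, adjusted p = 0.0496), and that call was lost when any 1 of 12 libraries was left out, with an adjusted p of at most 0.22. With all libraries EGLN1, the main oxygen sensor, was not called in any comparison, with log2 fold changes of -0.03 to 0.20. VHL was likewise not called, at -0.14 to -0.03.

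The other HIF targets did not move as a block. In each genotype ADM was the single target of the 9 called higher with knockdown, and none was called lower by edgeR (0 at an unadjusted p under 0.05, and 0 by DESeq2). Over all tested genes knockdown raised 28.7% and lowered 28.1% in truncation cells, and 25.2% and 25.1% in WT cells. Each comparison of genotypes had 2 higher and 3 lower of the 9, against 21.9% higher and 23.6% lower in knockdown cells and 21.6% higher and 22.4% lower under scramble of all tested genes. Once WT knockdown replicate 2 was left out, knockdown in WT cells had 5 higher and 0 lower (likewise 0 at an unadjusted p under 0.05 by edgeR), and truncation in knockdown cells had 2 higher and 6 lower. Of all genes then tested, 24.1% were higher and 23.7% lower in the first comparison, and 21.8% and 24.6% in the second. ADM, which encodes the vasodilator peptide adrenomedullin, had 111, 125, 109 and 118 CPM in truncation knockdown and 41.7, 42.0, 42.2 and 43.3 CPM in truncation scramble, against 91.3, 92.3, 85.4 and 99.8 CPM in WT knockdown and 36.8, 30.6, 31.9 and 36.7 CPM in WT scramble. All 8 knockdown libraries lay above all 8 scramble libraries. ADM rose with knockdown in truncation cells (log2 fold change 1.49 ± 0.06, adjusted p = 2.08e-15) and in WT cells (log2 fold change 1.45 ± 0.07, adjusted p = 2.26e-14), and the interaction of 0.04 ± 0.09 was not called (adjusted p = 0.852). The truncation also came with higher ADM, by 0.34 ± 0.06 in knockdown cells and 0.30 ± 0.07 under scramble (adjusted p = 7.37e-05 and 0.000658). WT knockdown replicate 2, low for most of the 40 genes, lay within the range of its group for ADM.

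NDRG1, a differentiation and stress gene strongly induced by low oxygen, followed the genotype. It had 541, 544, 525 and 525 CPM in truncation knockdown and 596, 580.3, 596 and 592 CPM in truncation scramble, against 326, 184, 309.7 and 273 CPM in WT knockdown and 342, 288, 291 and 268 CPM in WT scramble. Every truncation library exceeded every WT library. NDRG1 rose with the truncation in knockdown cells (log2 fold change 0.98 ± 0.11, adjusted p = 6.72e-08) and under scramble (log2 fold change 0.98 ± 0.11, adjusted p = 7.21e-08). Knockdown was not called in truncation cells (log2 fold change -0.11 ± 0.11, adjusted p = 0.385) or WT cells (log2 fold change -0.11 ± 0.11, adjusted p = 0.417).

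CA9, which acidifies the outside of hypoxic cells and is among the most HIF-dependent genes, was close to the detection limit. Its raw counts were 1, 0, 1 and 1 in truncation knockdown and 1, 0, 2 and 0 in truncation scramble, against 21, 0, 29 and 13 in WT knockdown and 8, 3, 11 and 13 in WT scramble. The truncation libraries together held 3 counts in each group, and WT knockdown replicate 2 held 0, unlike the rest of its group. The summed level was 0.0849 of WT in scramble cells (95% exact interval 0.0167 to 0.269 from counting error only) and 0.0477 of WT in knockdown cells (0.00959 to 0.146), or 0.0357 without WT knockdown replicate 2 (0.00718 to 0.109). Both differences were called (adjusted p = 0.000267 in knockdown cells and 0.00558 under scramble). Knockdown was not called in either genotype, but was in WT cells without replicate 2 (log2 fold change 1.22, adjusted p = 0.0195). CA12, a relative of CA9, was not called in any comparison with all libraries.

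The mitophagy receptor BNIP3 fell with the truncation in knockdown cells (log2 fold change -0.88 ± 0.16, adjusted p = 5.78e-05; without WT knockdown replicate 2, log2 fold change -1.08, adjusted p = 1.72e-09) and under scramble (log2 fold change -0.49 ± 0.16, adjusted p = 0.0129), the second lost without truncation scramble replicate 1 (adjusted p = 0.0524). It stood at 28.7 ± 4.21 CPM in truncation knockdown and 33.9 ± 3.59 in truncation scramble, against 53.0 ± 17.2 in WT knockdown and 47.2 ± 2.51 in WT scramble (SD, n = 4 each). Its relative BNIP3L was not called with all libraries and rose with knockdown in WT cells without replicate 2 (log2 fold change 0.50, adjusted p = 0.000435). VEGFA, the main angiogenic factor, fell with the truncation under scramble (log2 fold change -0.16 ± 0.06, adjusted p = 0.0238), a call lost without WT scramble replicate 1 (adjusted p = 0.0756) or truncation scramble replicate 1 (adjusted p = 0.0896) or truncation scramble replicate 2 (adjusted p = 0.0781) or truncation scramble replicate 4 (adjusted p = 0.0567). ANKRD37 fell with the truncation in knockdown cells (log2 fold change -0.39 ± 0.14, adjusted p = 0.0259), a call lost without WT knockdown replicate 1 (adjusted p = 0.0738) or WT knockdown replicate 4 (adjusted p = 0.0571) or truncation knockdown replicate 1 (adjusted p = 0.0683) or truncation knockdown replicate 2 (adjusted p = 0.0562). The histone demethylase KDM3A was not called with all libraries, at log2 fold changes of 0.10 to 0.16 in the 4 comparisons of groups.

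The windows of CA9 and ADM are shown as targets that moved with different factors, CA9 with the genotype and ADM mainly with the siRNA (chr9:35673678-35673977 on the plus strand and chr11:10304823-10305122 on the plus strand, GRCh38.p14, RefSeq, 300 bases).
CA9: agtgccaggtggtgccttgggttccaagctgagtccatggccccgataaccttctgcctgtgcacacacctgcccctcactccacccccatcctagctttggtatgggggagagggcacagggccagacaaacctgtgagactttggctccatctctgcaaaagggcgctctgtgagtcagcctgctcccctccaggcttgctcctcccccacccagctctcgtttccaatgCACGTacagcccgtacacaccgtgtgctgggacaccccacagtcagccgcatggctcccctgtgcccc
ADM: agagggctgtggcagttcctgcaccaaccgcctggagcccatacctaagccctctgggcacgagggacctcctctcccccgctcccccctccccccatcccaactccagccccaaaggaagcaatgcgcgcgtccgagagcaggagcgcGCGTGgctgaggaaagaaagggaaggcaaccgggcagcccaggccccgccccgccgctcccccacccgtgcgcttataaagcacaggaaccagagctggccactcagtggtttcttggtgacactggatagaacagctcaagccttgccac
The CA9 window held 1 ACGTG and the ADM window 1 GCGTG.

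RefSeq promoter windows were matched for 34 of the 40 genes, 62 windows in all, and not matched were BNIP3L, VEGFA, NDRG1, VHL, SLC2A3 and SLC16A1. ACGTG occurred on either strand in 37.1% of those windows, against 21.4% of all 35116 windows of the same length. For GCGTG the shares were 43.5% of the members' windows and 36.5% of all windows, and for either motif 67.7% and 48.4%. At least 1 of the motifs occurred in a window of 31 of the 34 genes. Some genes have more than 1 window, so this count by gene cannot be set against the shares of windows. The share of all genes counted in the same way is not given here. ACGTG also lies within the E-box CACGTG, which other factors bind, and the genes were listed partly for known HIF control, so no test is given.

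The low levels of WT knockdown replicate 2 differed between roles. Its median ratio to the mean of the other 3 WT knockdown libraries was 0.683 over the 9 other HIF targets, 0.719 over the 9 upper enzymes, 0.757 over the 6 lactate and pyruvate genes, 0.851 over the 6 lower enzymes and 0.882 over the 6 HIF subunits and regulators. The lowest ratios apart from CA9 were 0.250 for ALDOC, 0.339 for ENO2, 0.348 for PDK1 and 0.367 for PFKFB4. At the other end SLC2A3 stood at 1.16, HIF1A at 1.09 and ADM at 1.0. WT knockdown replicate 1 had the opposite lean, highest of its group for 26 of the 40 genes with a median ratio of 1.17. Culture conditions per library are not in the labels, and what sets replicate 2 apart was not tested.

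**Figure D5:**
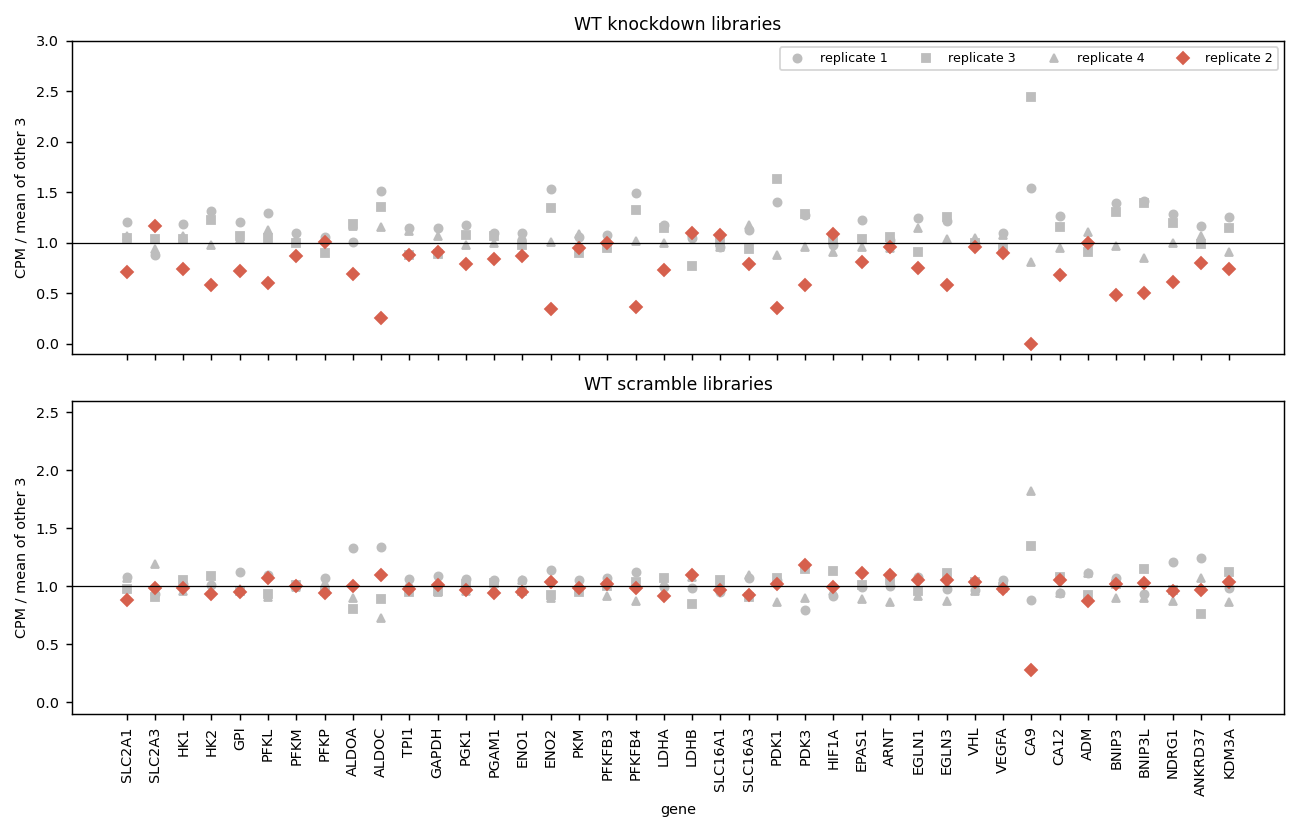
Ratio of the CPM of each WT library to the mean of the other 3 libraries of its group, for each of the 40 genes, in WT knockdown (top) and WT scramble (bottom), with replicate 2 in red. In WT knockdown replicate 2 lies below the rest for 29 genes, and in WT scramble the libraries run from 0.723 (ALDOC in replicate 4) to 1.34 (ALDOC in replicate 1) apart from the very low CA9.

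Without WT knockdown replicate 2, knockdown in WT cells was also called higher for ALDOA, ALDOC, GAPDH, PDK1, CA9, BNIP3, BNIP3L and KDM3A, and SLC16A3 and EPAS1 were no longer called lower. The interaction was then lower for GPI, ALDOC, TPI1, PGAM1, ENO1, ENO2, LDHA, SLC16A3, PDK1, BNIP3 and BNIP3L as well as for SLC2A1, HK2, PFKL and PFKP. Summed over the 15 glycolytic enzymes, levels were 11744 ± 534 CPM in truncation knockdown, 13179 ± 322 in truncation scramble, 13642 ± 1130.0 in WT knockdown and 13323 ± 442 in WT scramble (SD, n = 4 each). Summed lactate and pyruvate genes stood at 1254 ± 107, 1655 ± 69.1, 2052 ± 260.0 and 2123 ± 85.7 CPM in the same group order. For the other HIF targets the sums were 881 ± 16.8, 868 ± 12.4, 629 ± 118 and 575 ± 37.8 CPM, and NDRG1 alone averaged 534 ± 10.3, 591 ± 7.35, 273 ± 63.7 and 297 ± 31.6 CPM in that order (SD, n = 4 each).

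Beyond the 40 genes, 84 further genes of the same pathways were listed, of which 75 were tested. With the truncation 13 were higher and 28 lower in knockdown cells, against 21.9% higher and 23.6% lower of all tested genes, and 12 higher and 24 lower under scramble, against 21.6% and 22.4%. With knockdown 26 were higher and 28 lower in truncation cells, against 28.7% and 28.1%, and 27 higher and 22 lower in WT cells, against 25.2% and 25.1%. As shares of the 75 these counts were 17.3% higher and 37.3% lower in knockdown cells and 16% higher and 32% lower under scramble with the truncation, and 34.7% higher and 37.3% lower in truncation cells and 36% higher and 29.3% lower in WT cells with knockdown. Leaving out WT knockdown replicate 2 gave 11 higher and 31 lower with the truncation in knockdown cells, and 28 higher and 21 lower with knockdown in WT cells. The interaction was called higher for 3 and lower for 6 of the 75, against 2.05% and 3.65% of all tested genes. When that library was left out, it was called higher for 3 and lower for 11, against 3.06% and 6.47% of all genes then tested.

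Each wider list was also counted on its own, against these shares of all tested genes. With the truncation they were 21.9% higher and 23.6% lower in knockdown cells, and 21.6% and 22.4% under scramble. With knockdown they were 28.7% and 28.1% in truncation cells, and 25.2% and 25.1% in WT cells. Without WT knockdown replicate 2 they were 21.8% and 24.6% with the truncation in knockdown cells, and 24.1% and 23.7% with knockdown in WT cells. Of the 29 tested genes of the wider HIF target list, 3 were higher and 15 lower with the truncation in knockdown cells, or 2 and 18 without WT knockdown replicate 2, and 1 higher and 12 lower under scramble. With knockdown 13 of the 29 were higher and 8 lower in truncation cells, and 15 higher and 4 lower in WT cells, or 16 and 4 without that library. The 15 tested genes of the wider glycolysis and gluconeogenesis list had 2 higher and 6 lower with the truncation in knockdown cells, or 0 (1 at an unadjusted p under 0.05 by edgeR) and 6 without that library, and 3 higher and 6 lower under scramble. With knockdown they had 5 higher and 6 lower in each genotype. Of the 11 genes of the wider HIF pathway, 4 were higher and 1 lower with the truncation in knockdown cells, or 5 and 1 without that library, and 3 higher and 0 lower under scramble (1 lower at an unadjusted p under 0.05 by edgeR, and 0 by DESeq2). The 6 tested wider glucose transporters had 1 higher and 1 lower in each comparison of genotypes. With knockdown 4 were lower in each genotype, and 1 was higher in WT cells. CITED2, a HIF-induced protein that competes with HIF for its coactivator, rose with knockdown to 129 ± 10.4 CPM in truncation knockdown, against 44.3 ± 2.07 in truncation scramble (log2 fold change 1.57 ± 0.07, adjusted p = 1e-15). In WT cells it rose by 1.44 ± 0.07 on the log2 scale (adjusted p = 2.62e-14). SLC16A7 (MCT2), a high-affinity lactate and pyruvate carrier, fell with knockdown by 1.74 ± 0.16 in truncation cells and by 1.43 ± 0.14 in WT cells, and PDP2, a phosphatase that reactivates pyruvate dehydrogenase, by 1.25 ± 0.08 and by 1.09 ± 0.08 (adjusted p from 2.12e-12 to 7.36e-09).

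The HIF target ANGPTL4, a secreted inhibitor of lipoprotein lipase, had 14.7 ± 1.41 CPM in truncation knockdown and 6.37 ± 1.02 in truncation scramble, against 16.9 ± 5.23 in WT knockdown and 13.5 ± 2.71 in WT scramble (SD, n = 4 each). It fell with the truncation under scramble (log2 fold change -1.09 ± 0.18, adjusted p = 2.79e-05) and rose with knockdown in truncation cells (log2 fold change 1.24 ± 0.18, adjusted p = 2.28e-06), with an interaction of 0.90 ± 0.25 (adjusted p = 0.0313). AK4, a mitochondrial adenylate kinase, had 28.9 ± 3.49 CPM in truncation knockdown and 73.3 ± 3.39 in truncation scramble, against 57.8 ± 10.5 in WT knockdown and 91.7 ± 7.70 in WT scramble. Its interaction was -0.66 ± 0.14 (adjusted p = 0.00625). DDIT4, an inhibitor of mTOR signalling, fell with the truncation in knockdown cells (log2 fold change -1.25 ± 0.17, adjusted p = 1.1e-06). The insulin-responsive transporter SLC2A4 fell with the truncation under scramble (log2 fold change -1.14 ± 0.22, adjusted p = 0.000205), whereas SLC2A12 rose (log2 fold change 0.69 ± 0.14, adjusted p = 0.000216). Both were low, with SLC2A4 averaging 1.37 CPM in truncation scramble and 2.98 CPM in WT scramble, and SLC2A12 4.78 and 2.93 CPM.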

How the data were processed

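RNA was sequenced from 16 HCT116 libraries, 4 per group, with libraries made by a commercial provider, per the labels' protocols. The authors deposited raw read counts per Ensembl gene for 60668 genes, of which 43699 had a count, and a filtered table of 22916 genes. The deposited signal values are TMM-scaled CPM of that filtered table, which recomputation matched to a largest relative difference of 5.0e-15. The submitters' processing notes name hg38 as build, and STAR 2.7.3a, limma, edgeR and DESeq2 without their roles. Which program counted reads, with what annotation and strand option, is not given in the sources used here.

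Levels are the deposited TMM-scaled CPM. Tests used the raw counts with edgeR 4.0.16 in R 4.3.3: filterByExpr over the 4 groups, which left 17104 genes, TMM scaling, a quasi-likelihood fit of all 16 libraries with 1 coefficient per group and 12 residual degrees of freedom, and two-sided tests with Benjamini-Hochberg adjustment over all tested genes. The threshold for a call was an adjusted p of 0.05. A value after ± is the standard error of a log2 fold change unless named as SD, and n is 4 libraries per group. The common biological coefficient of variation was 7.25%. Intervals for CA9 are exact and cover counting error only. The fit was checked on simulated counts with known changes. Replicates are biological per the labels, which name no separate cultures and no batch, so p-values reflect only the spread among these libraries, which may be technical. The labels state no block, so none was used in the main fit.

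The 40 genes, their roles and the wider list of 84 were chosen with earlier results of these data known. Values per library are given for the 4 called genes with the largest rise and the 4 with the largest fall of each comparison, plus HIF1A, SLC2A1, HK2, PFKFB4, LDHA and CA9. From the wider list, genes with the largest called changes are named. Gene lengths and overlaps are from GENCODE on hg38. Promoter windows are from RefSeq on GRCh38.p14, the same build. Alternatives were DESeq2 1.42.0, 2 other scalings, no filter on low counts, the authors' filtered genes, a replicate block, only the 2 groups compared, each library left out, and WT knockdown replicates 2 and 3 left out together. WT knockdown replicate 3 had a count for 32264 genes, against 25626 to 27765 in the other libraries.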

Additional observations from a re-analysis of the deposited data

Results flagged for a closer look

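Among 160 sets of 4 libraries (40 genes in 4 groups), 7 held a library far from the other 3, and chance flags about 1 in 20. These were GPI at 812.5 CPM in WT scramble replicate 1, the highest of its group, PGK1 at 492.0 CPM and PGAM1 at 346.7 CPM in truncation knockdown replicate 4, the lowest, LDHB at 6.57 CPM in WT knockdown replicate 3, the lowest, SLC16A1 at 144.8 CPM and PDK3 at 17.45 CPM in truncation scramble replicate 3, the highest, and CA9 at 0 CPM in truncation knockdown replicate 2, the lowest of a group with at most 1 count per library. None of them was in WT knockdown replicate 2, although that library was the lowest of its group for 29 genes.

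The knockdown effect differed between truncation and WT cells, by the interaction of edgeR's quasi-likelihood test, for SLC2A1 (log2 difference -0.77), HK2 (-0.80), PFKL (-0.61) and PFKP (-0.33), each a larger fall or an opposite change in truncation cells. Of the 75 tested genes of the wider list it differed for 9, against 2.05% higher and 3.65% lower of all tested genes. These were ANGPTL4 (0.90 ± 0.25), ZNF395 (0.39 ± 0.10) and STC2 (0.38 ± 0.10), which were higher, and AK4 (-0.66 ± 0.14), PLOD2 (-0.54 ± 0.16), GYS1 (-0.51 ± 0.14), G6PC3 (-0.37 ± 0.10), P4HA2 (-0.34 ± 0.10) and GPD2 (-0.31 ± 0.09), which were lower. PLOD2 hydroxylates collagen lysines and GYS1 is the muscle glycogen synthase. Without WT knockdown replicate 2 the wider list had 3 higher and 11 lower, against 3.06% higher and 6.47% lower of all genes then tested. With all libraries the adjusted p-values of the 9 genes ran from 0.00625 for AK4 to 0.0426 for PLOD2.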

How the results depend on the processing

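Of 4757 values of the 40 genes under alternatives, 4477 kept their side of the threshold, 114 lost the call and 166 gained one. No called value changed sign. The 4477 include 136 values without a call, in the main run or the alternative, that did change sign. Of the 82 calls, 56 held in every alternative run, among them all 4 of the interaction, 15 of 19 of truncation under scramble, 19 of 25 of truncation in knockdown cells, 12 of 16 of knockdown in truncation cells, and 6 of 18 of knockdown in WT cells. Depth limits CA9, whose libraries held few counts or none.

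Leaving out 1 library at a time gave 6 to 11 of the 40 higher for the truncation under scramble, 3 to 5 of the 40 higher for the truncation in knockdown cells, 4 to 17 of the 40 higher for knockdown in WT cells, 205 to 533 of all genes higher for the interaction, 0 to 1 of the 40 higher for the interaction, 426 to 1128 of all genes lower for the interaction and 4 to 15 of the 40 lower for the interaction. Over the same runs, 3330 to 3938 of all genes were higher with the truncation under scramble and 3317 to 3797 with the truncation in knockdown cells. For knockdown in WT cells 3928 to 4347 of all genes were higher. With only the 2 groups compared, 12 of the 40 were higher with the truncation under scramble and 5 with knockdown in WT cells. Without WT knockdown replicates 2 and 3 together, 11 were higher with the truncation under scramble and 5 in knockdown cells, 5 were lower with knockdown in WT cells, and the interaction was lower for 14 of the 40 and for 1284 of all genes. With upper-quartile scaling 7 were higher with knockdown in truncation cells, and the interaction was higher for 1 of the 40. DESeq2 gave 1 higher of the 40 and 993 lower of all genes for the interaction, and no filter on low counts gave 1 higher and 11 lower of the 40. Where no count over all genes is given for a setting, the counts do not show whether the 40 genes moved more than all genes did. The cause of these shifts was not tested. Upper-quartile scaling moved the split of all genes: 3084 higher and 4561 lower with the truncation under scramble (main split 3692 and 3837), 5645 and 4247 with knockdown in truncation cells (4904 and 4802), and 502 and 397 for the interaction (350 and 624).

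With the replicate block, 5 of the 40 were higher with the truncation in knockdown cells and 1 for the interaction, and the other counts moved by less than 1.5 times. The labels state no block, and deviations of same-numbered libraries correlated at -0.078 to 0.164. Replicate 3 correlated best with its own number in each comparison of groups, at 0.048 to 0.147. Replicate 4 did so only for the truncation under scramble (0.164), and replicates 1 and 2 in no comparison. With the longest transcript as gene length, 52 of 76 isoenzyme shares moved by more than their SD.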
